A study of Mus musculus with 24 samples.

Results

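The mammary glands described here came from mice that received only sesame oil, the vehicle of a progesterone experiment, and were compared 76 h and 4 h after the first injection. The members were chosen by label alone: the 3 arrays of oil at 76 h and the 3 arrays of oil at 4 h, 6 of the 24 arrays of the series. All mice were nulliparous Balb/c females whose ovaries had been removed at 6 weeks of age and who had rested for 2 weeks, so that the main source of estrogen and progesterone was missing in every group. The oil mice received 100 µl of sesame oil, and the progesterone mice received 1 mg of progesterone in 100 µl of the same oil as a daily injection under the skin. The progesterone arrays are used below to show where the oil change differs. They also entered the gene filter, the choice of probe set and the common estimate of the spread. Each array carried RNA pooled from 5 mice, so that each of the 8 groups (oil or progesterone at 4, 16, 28 or 76 h) held 3 pools and 15 mice. The labels give neither the hour of day at which glands were taken nor the number of oil injections. Counted from the first injection, 76 h lies 72 h or 3 days after 4 h, which does not show that glands of both times were taken at the same hour. Time since the first injection, the hour of day, the number of injections, the hours since the last of them, age and days since ovariectomy cannot be told apart.

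A mammary gland at this age is a fat pad of white adipocytes crossed by a small tree of epithelial ducts, with vessels, nerves, immune cells and connective tissue. Most of its cells run a circadian clock. In that clock Arntl (BMAL1) with Clock or its relative Npas2 switches on genes through the E-box, the letters CACGTG. Among those genes are the Period and Cryptochrome repressors, the nuclear receptors Nr1d1 and Nr1d2 (REV-ERBs), which repress Arntl, Npas2, Clock and Nfil3 through ROR elements, and the leucine zipper factors Dbp, Tef and Hlf, which act through the D-box. Transcripts of the Dbp and Nr1d1 kind therefore peak at about the opposite time of day to those of Arntl and Npas2. In the fat pad, sterol and fatty acid synthesis, fat storage and fatty acid oxidation are under feeding, hormonal and clock control.

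Intensities were comparable between the arrays: the median over all probe sets lay between 62.8 and 67.3 on the 6 oil arrays and between 62.8 and 70.2 on all 24. Across the 12352 genes tested, which are not independent replicates, log2 values correlated with r from 0.984 to 0.987 among the 4 h arrays, from 0.987 to 0.991 among the 76 h arrays and from 0.976 to 0.983 between the 2 times. The fat pad markers were bright at both times: Adipoq (adiponectin, an adipocyte hormone) measured 11900, 11000 and 11600 at 4 h and 11400, 11300 and 11100 at 76 h. Replicate 3 of 76 h stood apart in skeletal muscle markers, whose summed intensity over 26 genes was 15680 there against 50060 to 58740 on the 3 arrays of 4 h and 50690 and 52320 on the other two of 76 h. The log2 ratio of the 3' to the 5' control probe sets of actin, a sign of RNA length and labelling, was 0.425 ± 0.015 at 4 h and 0.339 ± 0.0331 at 76 h (SD, n = 3 arrays), with no overlap and an exact two-sided permutation p of 0.1, the smallest that 3 against 3 arrays allow. For Gapdh it was -0.0786 ± 0.103 and -0.113 ± 0.0244 (exact permutation p = 0.8). Whether the actin difference has a part in the results below was not tested.

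Between 4 h and 76 h, 441 of the 12352 genes changed, 3.57% (limma, adjusted p under 0.05 over all genes). Of these, 118 were higher at 76 h (0.955% of those tested) and 323 lower (2.61%). The changes were modest. The median called rise was 0.521 and the median called fall -0.516 on the log2 scale, and 6 rises and 9 falls reached 1, while the median of all genes was -0.0352. At an unadjusted limma p under 0.05 there were 2524 genes, 818 higher and 1706 lower. The 3 arrays of one time lay wholly above those of the other in 4137 genes (33.5%; 12.5% with 76 h above and 21% with 76 h below), which included 440 of the 441 called. The excess of falls depended on the kind of scaling. Quantile normalization between arrays gave 200 higher and 227 lower genes, while centring the arrays on their medians gave 84 higher and 201 lower. Single arrays decided many calls. The count was 92, 216 and 147 without replicate 1, 2 or 3 of 4 h, and 45, 54 and 280 without replicate 1, 2 or 3 of 76 h. Of the 441 genes, 32 (6 higher, 26 lower) stayed called in each of these 6 fits. All 441 kept their sign, which the lack of overlap fixed in advance for 440 of them.

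**Figure D1:**
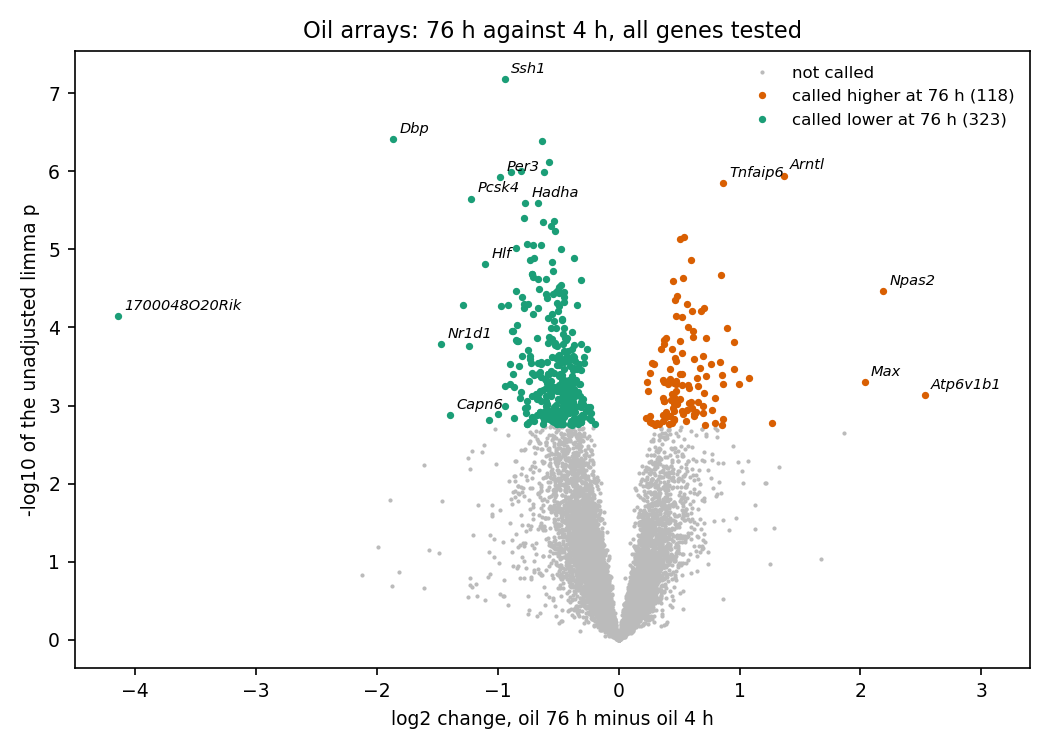
Log2 change from oil 4 h to oil 76 h (x axis) against the unadjusted limma p on a -log10 scale (y axis) for 12352 genes, 1 point a gene. The 118 genes called higher are orange, the 323 called lower green and the others grey, with clock genes and the largest changes named.

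Of the lists examined, the 2 circadian clock lists had the highest shares of members called. Of 5 genes of the Arntl phase that were tested, 3 rose and none fell, and of 14 of the Dbp phase, 9 fell and none rose, all 14 estimates being negative. The list medians were 0.774 and -0.775 on the log2 scale, against -0.0352 over all genes. Of all genes tested, 0.955% were called higher and 2.61% lower. Quantile normalization and centring left both counts as they were. Leaving out single arrays left 2 or 3 rises and 5 to 8 falls, with the lowest counts, 2 and 5, without replicate 1 of 76 h.

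Arntl, the core activator, had intensities of 82.1, 92.8 and 94.5 on the 4 h arrays and 281, 202 and 218 on the 76 h arrays. It was 2.58-fold higher at 76 h, 1.37 ± 0.21 on the log2 scale (SE), with an adjusted limma p of 0.00162. Npas2, which can take the place of Clock as its partner, measured 16.6, 15.2 and 8.05 at 4 h and 69.1, 57.7 and 48.1 at 76 h. All 3 of its 4 h arrays lay below their array medians, close to background, where the fold of 4.55 (log2 change 2.19 ± 0.43, adjusted p = 0.00884) is imprecise. Clock itself moved from 393, 361 and 382 to 594, 560 and 565, without overlap and with little spread (log2 change 0.60 ± 0.11, adjusted p = 0.00585). Its 3 other probe sets gave 0.17, 0.28 and -0.10 and did not pass the test, so that the rise of Clock rests on 1 probe set. Nfil3, the repressor that competes with Dbp at D-boxes, measured 52.2, 41.8 and 67.1 at 4 h and 108, 75.7 and 89.8 at 76 h. The groups did not overlap, but the log2 change of 0.77 ± 0.24 missed the threshold (adjusted p = 0.0753). Cry1, a repressor whose peak comes late, differed by 0.16 (adjusted p = 0.687).

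Dbp, the D-box activator, gave the largest fall among the clock genes. It measured 2380, 3160 and 2180 on the 4 h arrays and 470, 854 and 847 on the 76 h arrays, a 3.64-fold lower level (log2 change -1.86 ± 0.27, adjusted p = 0.00162). Its second probe set gave -2.13. Nr1d1 measured 1050, 678 and 538 at 4 h and 274, 240 and 276 at 76 h, so that the early arrays spread widely and the late ones did not (log2 change -1.47 ± 0.33, adjusted p = 0.0179). Hlf fell from 165, 190 and 164 to 69.7, 85.3 and 87.6 (log2 change -1.10 ± 0.20, adjusted p = 0.00613). Tef, the third factor of the Dbp family, fell from 1160, 1380 and 1180 to 608, 643 and 764 (log2 change -0.89 ± 0.14, adjusted p = 0.00162), although a second Tef probe set gave 0.14. The REV-ERB relative Nr1d2 fell from 2320, 2220 and 2130 to 1350, 1490 and 1500 (log2 change -0.62 ± 0.09, adjusted p = 0.00162), and its second probe set gave -0.13.

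The Period genes did not move alike. Per3 measured 322, 363 and 297 at 4 h and 170, 195 and 137 at 76 h (log2 change -0.98 ± 0.15, adjusted p = 0.00162), and its 3 other probe sets had the same sign. Per1, which light, stress hormones and feeding induce quickly, measured 247, 423 and 433 at 4 h and 139, 234 and 310 at 76 h. These groups overlapped, and the change of -0.72 ± 0.26 missed the threshold (adjusted p = 0.118). Per2 was read at -0.12 (adjusted p = 0.807) by the probe set with the higher mean, while its other probe set gave -0.94 with an adjusted p of 0.0483 among all probe sets. Tspan4, a tetraspanin, fell by 0.81 on the log2 scale (adjusted p = 0.00162), Ciart (CHRONO), a repressor of the Arntl complex, by 0.81 (adjusted p = 0.0325), and Wee1, a kinase that delays mitosis and carries E-boxes, by 0.74 (adjusted p = 0.0288). A second Wee1 probe set gave -0.19 and did not pass. Bhlhe40 (-0.53), Usp2 (-0.42) and Cry2 (-0.16) did not pass. Arntl, Clock, Dbp, Tef, Per3, Nr1d2 and Tspan4 stayed called without any single array. Npas2 and Hlf lost the call without replicate 1 of 76 h (adjusted p = 0.0626 and 0.0535). Nr1d1 lost it without replicate 1 of 4 h, 1 of 76 h or 2 of 76 h (up to 0.111), Wee1 without replicate 2 or 3 of 4 h or 1 or 2 of 76 h (up to 0.17), and Ciart without any one of the 6 (up to 0.109).

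**Figure D2:**
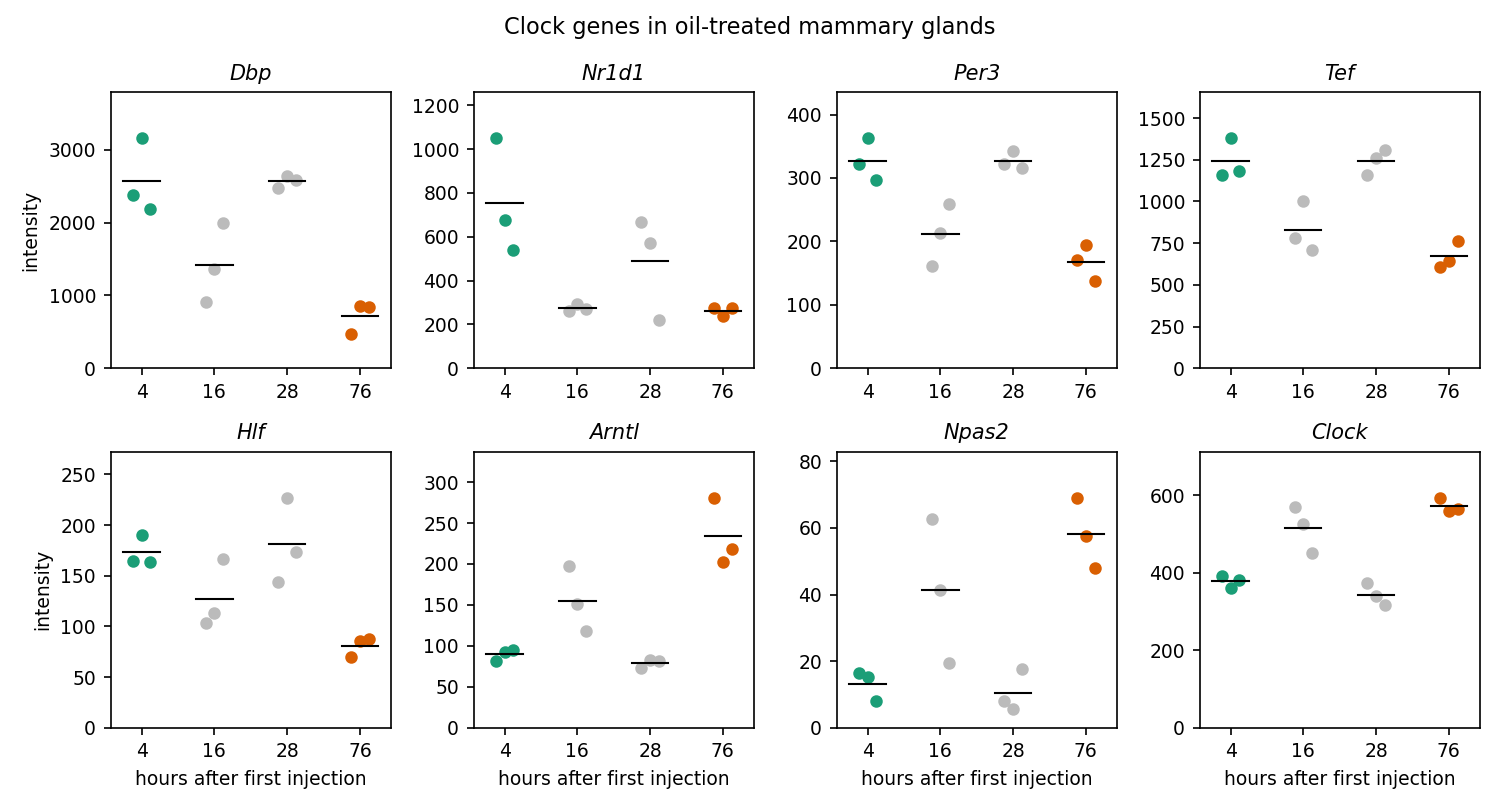
Intensity (linear axes from 0) of 8 clock genes on the 12 oil arrays by hours after the first injection; each point is 1 array of 5 pooled mice and each line a group mean, with 4 h in green, 76 h in orange and the times between in grey. The upper row and Hlf are low at 76 h, Arntl, Npas2 and Clock are high, and the 28 h arrays lie near the 4 h arrays except in Nr1d1.

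Clock elements can be read in the promoters of some of the clock genes and not of others. The sequences are the 250 bases before the RefSeq transcript start on GRCm38.p6, written 5' to 3' on the gene's strand, with matched elements in capitals. Ciart is shown for its 3 E-boxes, Tef for 1 at each of 2 starts, Per3 for its D-boxes, and Nfil3 as a gene of the opposite phase with a ROR core on its reverse strand.
Ciart, chr3:95882229-95882478, minus strand: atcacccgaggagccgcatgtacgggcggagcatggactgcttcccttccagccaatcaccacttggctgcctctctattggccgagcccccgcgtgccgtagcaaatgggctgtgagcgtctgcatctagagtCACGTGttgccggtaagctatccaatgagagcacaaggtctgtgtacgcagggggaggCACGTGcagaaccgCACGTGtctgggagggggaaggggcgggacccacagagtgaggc
Tef, first start, chr15:81802423-81802672, plus strand: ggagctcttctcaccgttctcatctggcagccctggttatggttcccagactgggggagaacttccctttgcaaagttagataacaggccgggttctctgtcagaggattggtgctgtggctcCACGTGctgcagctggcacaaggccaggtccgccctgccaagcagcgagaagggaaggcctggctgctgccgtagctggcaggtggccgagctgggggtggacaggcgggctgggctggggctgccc
Tef, second start, chr15:81811164-81811413, plus strand: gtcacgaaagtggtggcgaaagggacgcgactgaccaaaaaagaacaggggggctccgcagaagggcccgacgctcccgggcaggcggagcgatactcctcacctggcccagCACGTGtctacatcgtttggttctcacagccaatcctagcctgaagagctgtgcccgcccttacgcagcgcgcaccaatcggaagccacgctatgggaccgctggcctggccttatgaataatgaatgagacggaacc
Per3, chr4:151044666-151044915, minus strand: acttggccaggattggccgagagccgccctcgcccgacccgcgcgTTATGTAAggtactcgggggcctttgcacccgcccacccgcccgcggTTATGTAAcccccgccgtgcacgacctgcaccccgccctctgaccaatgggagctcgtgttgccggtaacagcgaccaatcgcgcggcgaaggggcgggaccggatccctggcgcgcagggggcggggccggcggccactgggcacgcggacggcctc
Nfil3, chr13:52981040-52981289, minus strand: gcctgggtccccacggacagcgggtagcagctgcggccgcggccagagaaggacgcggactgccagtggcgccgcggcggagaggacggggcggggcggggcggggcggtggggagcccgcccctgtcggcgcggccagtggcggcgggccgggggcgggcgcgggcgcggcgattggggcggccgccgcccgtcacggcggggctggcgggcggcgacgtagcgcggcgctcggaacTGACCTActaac

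In Ciart the E-boxes begin 116, 58 and 44 bases before the start, in Tef 127 and 138 bases before the respective starts. The D-boxes of Per3 (TTATGTAA) begin 205 and 158 bases before its start, and the ROR core of Nfil3 (TGACCTA, the reverse strand of TAGGTCA) 12 bases before. The letters searched on both strands were CACGTG for the E-box, TTATGTAA and TTACGTAA for the D-box, and TAGGTCA and TGGGTCA for the ROR core, and none of these overlaps another. Of the 11 Dbp-phase genes with a promoter in the table, 4 held an E-box (Ciart, Tef, Tspan4 and Per1) and 1 a D-box. Of the 5 Arntl-phase genes, 1 held an E-box (Cry1) and 1 a ROR core (Nfil3). The called genes Dbp, Nr1d1, Hlf, Nr1d2, Arntl, Npas2 and Clock held none of these elements in the window. Per1, Cry1 and Nfil3, which held one, were not called. The next shares are of genes with a promoter, and a gene with several starts counted if any of its windows held the element. Over all called genes, an E-box was found for 13.6% of 257 genes that fell and 13.3% of 98 that rose. The share was 9.85% of 9952 among all genes tested and 6.86% of all 27025 genes with a promoter. A D-box was found for 0.778% and 4.08% against 0.794% and 1.1%, and a ROR core for 5.06% and 7.14% against 5.34% and 6.15%. These shares are descriptions of short windows, in which a gene's elements in introns or farther upstream do not appear.

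For the clock, the levels at 16 h differed from 4 h in the direction of 76 h, and those at 28 h lay near 4 h. On the oil arrays of 16 h, the Arntl-phase median was 0.437 and the Dbp-phase median -0.396 relative to 4 h. On those of 28 h the medians were -0.145 and 0.00378. The differences share the 4 h arrays and are given side by side. Dbp measured 914, 1360 and 1990 at 16 h and 2480, 2640 and 2590 at 28 h, so that the 76 h level lay below that of every other oil time. Arntl measured 197, 151 and 118 at 16 h and 72.7, 83 and 81.1 at 28 h, and its 76 h arrays were the highest of the 12. Against 28 h, Dbp at 76 h was lower by 1.88 on the log2 scale (adjusted p = 8.72e-05), and Arntl was higher by 1.55 (adjusted p = 4.91e-05).

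Outside the clock, the 15 largest rises and falls included genes of many roles. Tnfaip6 (TSG-6, a hyaluronan-binding protein released on inflammation) measured 175, 161 and 189 at 4 h and 336, 330 and 292 at 76 h (log2 change 0.87 ± 0.13, adjusted p = 0.00176). Ssh1, the slingshot phosphatase that activates the actin-severing protein cofilin, had the smallest p of all genes. Its intensities were 829, 798 and 763 at 4 h and 427, 454 and 369 at 76 h (log2 change -0.94 ± 0.12, adjusted p = 0.00081), and its second probe set gave -0.53. Both genes stayed called without any single array. Pcsk4, a proprotein convertase known from germ cells, fell from 229, 233 and 184 to 93.4, 95 and 87.9 (log2 change -1.22 ± 0.20, adjusted p = 0.00244), also in every fit without 1 array.

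Large rises were also read for Atp6v1b1, a subunit of the proton pump of acid-secreting cells, and Max, the partner of Myc. Atp6v1b1 measured 18.2, 20 and 27.7 at 4 h and 156, 96.8 and 129 at 76 h (log2 change 2.53 ± 0.65, adjusted p = 0.0342), with the 4 h arrays below their array medians. Max measured 89.4, 61 and 116 at 4 h and 399, 300 and 364 at 76 h (log2 change 2.03 ± 0.50, adjusted p = 0.0291). The other arrays fell into the same high or low levels for both genes. At 16 h, Max measured 438 and 440 on oil replicates 1 and 2 and 450 on progesterone replicate 1, while the other 3 arrays of that time measured 83.2, 102 and 102. Atp6v1b1 measured 155, 141 and 170 on the former and 22.7, 24.3 and 16.1 on the latter. Replicates of 1 group thus differed as much as the times compared, and what the high arrays share was not tested. Both genes lost the call when any one of the 6 arrays was left out (adjusted p up to 0.119 for Max and 0.14 for Atp6v1b1).

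Among the other large rises were the blood-clotting chain Fgg (fibrinogen gamma, from 89.8, 47.7 and 91.5 to 155, 146 and 163), the milk protein Lalba (alpha-lactalbumin, from 97.3, 84.1 and 55.7 to 187, 128 and 152) and Cxadr, a cell-adhesion protein of tight junctions (from 123, 130 and 104 to 251, 236 and 203). Their log2 changes were 1.08, 0.998 and 0.95, with no overlap between the times, which the naming rule required of every gene among the 15. Gtpbp10 (0.95), the RNA-binding protein Mex3b (0.90), Zdhhc14 (0.87), the mitochondrial protease Yme1l1 (0.86), Fer1l4 (0.85), the eosinophil ribonuclease Ear3 (0.85) and the splicing factor Snrnp40 (0.85) completed the 15. Zdhhc14 is uncertain, since its 5 other probe sets gave values from -0.25 to 0.14. The other probe sets of Yme1l1 (0.22 and 0.03), Snrnp40 (0.20) and Gtpbp10 (0.32) did not pass the test, so that these rises rest on 1 probe set each. Those of Cxadr gave 1.22, which passed, and 0.22, which did not. At 16 h, Cxadr, Gtpbp10 and Mex3b were higher on the same arrays as Max and Atp6v1b1. On oil replicates 1 and 2 and progesterone replicate 1, Cxadr measured 240, 222 and 213, against 147, 132 and 122 on the others. Gtpbp10 measured 113, 113 and 114 against 84.7, 76.3 and 54.4, and Mex3b 98.3, 91.5 and 92.9 against 70.1, 53.6 and 72.1. Ear3 has near-identical relatives that its probes may read too. Of these 10, none stayed called in every fit without 1 array. Snrnp40 lost the call only without replicate 2 of 76 h (adjusted p = 0.0539), and Mex3b without replicate 3 of 4 h or 1 or 2 of 76 h (up to 0.0873). The others lost it in 4 or more of the 6 fits, with adjusted p up to 0.204.

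Large falls included Capn6, a calpain relative that binds microtubules, which measured 90.8, 57.1 and 127 at 4 h and 18.6, 43.8 and 44.6 at 76 h (log2 change -1.39 ± 0.38, adjusted p = 0.0446). The coactivator Cited4 fell from 116, 113 and 115 to 43.6, 30.9 and 86.1 (log2 change -1.24 ± 0.28, adjusted p = 0.0183). The 3 arrays of 4 h agreed closely for Cited4, and those of 76 h spread widely, from 30.9 to 86.1. Dipk1b (-1.29), Slfn5 (-0.996), Kctd14 (-0.98), the glucose transporter Slc2a10 (-0.94), the kinase Map3k11 (-0.94), the protocadherin Pcdhgc4 (-0.91) and the erythropoietin receptor Epor (-0.90) were the others outside the clock. Kctd14 is uncertain in size, since its other probe sets gave -0.02 and -2.88, and Pcdhgc4 shares its last exons with the other gamma protocadherins. None of these 9 stayed called in every fit without 1 array. Kctd14 lost the call without replicate 1 or 2 of 76 h (adjusted p up to 0.0836), Pcdhgc4 without replicate 1 of 4 h or 2 of 76 h (up to 0.0636), Dipk1b without replicate 1 of 4 h or 1 or 2 of 76 h (up to 0.0836), and the other 6 in 4 or more of the 6 fits (up to 0.243). A clone-named gene, 1700048O20Rik, chosen after its values were seen, measured 57.3, 208 and 186 at 4 h and the table's common minimum of 3.38 on all 3 arrays of 76 h and of oil at 16 h. It was called (adjusted p = 0.0115), but not without replicate 3 of 4 h or replicate 1 or 2 of 76 h (up to 0.0626), and no fold is given against values at the minimum.

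**Figure D3:**
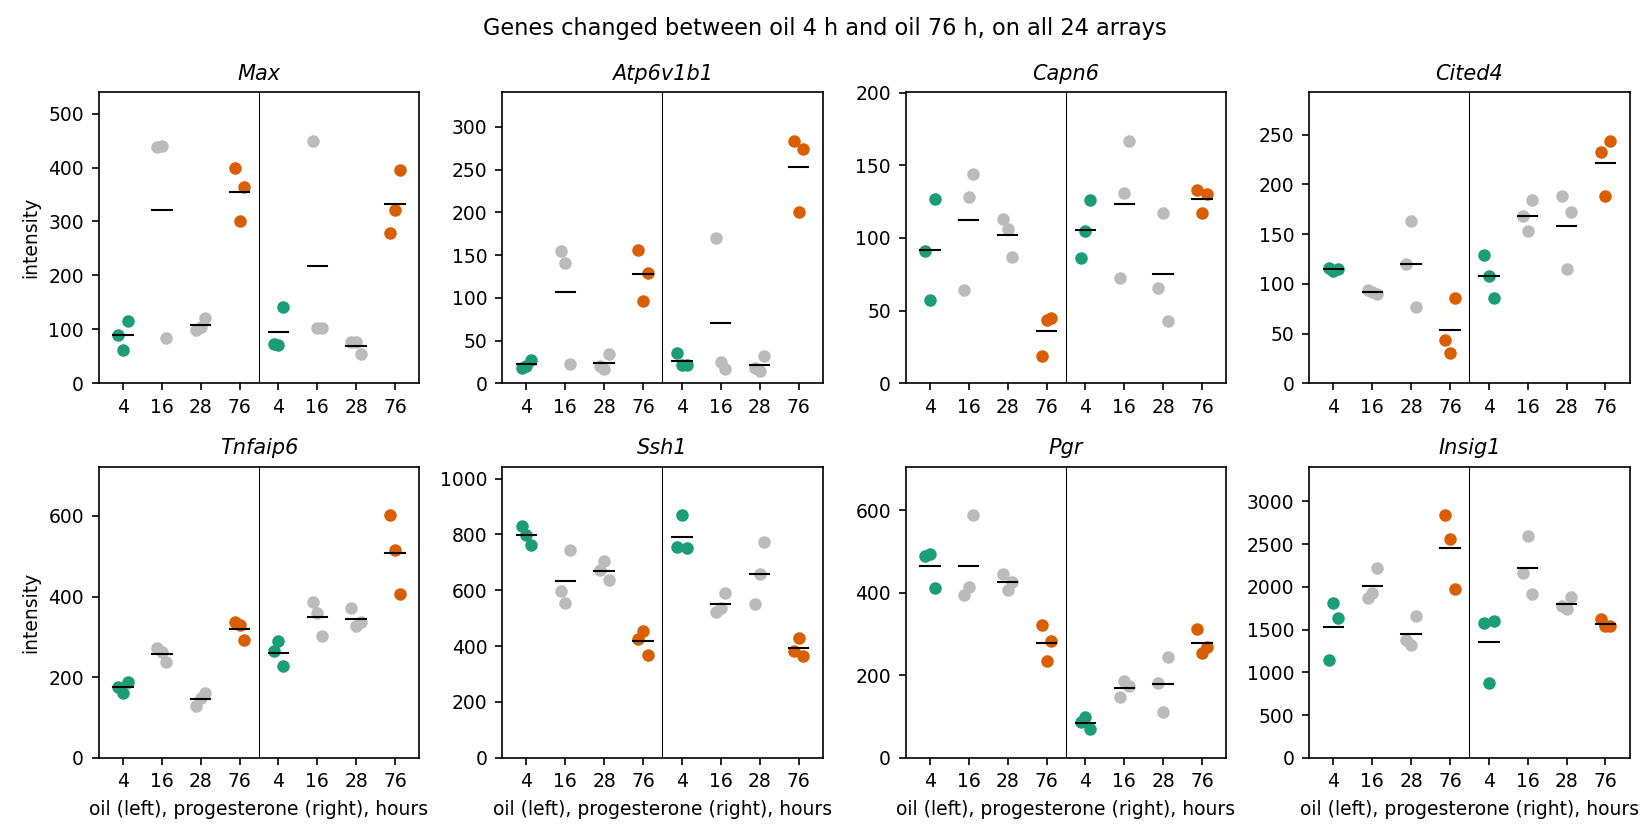
Intensity (linear axes from 0) of 8 genes called between oil 4 h and oil 76 h on all 24 arrays, with oil to the left and progesterone to the right of the line in each panel and hours after the first injection on the x axis. Points are arrays and lines group means; Max and Atp6v1b1 fall into high and low arrays within 16 h, and Pgr is high at oil 4 h and low at progesterone 4 h.

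The called sterol genes rose and the called fatty acid genes fell. Of 19 genes of cholesterol synthesis and uptake, 3 rose and none fell, with a list median of 0.114. Of 27 genes of fatty acid and triglyceride synthesis, 4 fell and none rose, with a median of -0.109. The shares called over all genes were 0.955% higher and 2.61% lower. Insig1, which retains the sterol sensor in the endoplasmic reticulum, measured 1150, 1810 and 1640 at 4 h and 2840, 2560 and 1980 at 76 h (log2 change 0.69 ± 0.18, adjusted p = 0.0393). Msmo1, a sterol demethylation enzyme, measured 523, 587 and 564 against 796, 868 and 906 (log2 change 0.62 ± 0.13, adjusted p = 0.0151). The early enzyme Hmgcs1 measured 1950, 1240 and 1510 against 2150, 2030 and 2390 (log2 change 0.51 ± 0.13, adjusted p = 0.0357). The 3 genes did not overlap between the times, and all 4 probe sets of Hmgcs1 were higher by 0.50 to 0.87 with adjusted p under 0.05. Squalene epoxidase, Sqle, differed by 0.07 (adjusted p = 0.832). Without replicate 1 or replicate 2 of 76 h no sterol gene was called, and without replicate 1 or 3 of 4 h 1 was. Insig1, Msmo1 and Hmgcs1 had highest adjusted p of 0.209, 0.0795 and 0.157 in these fits.

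The 4 fatty acid and triglyceride genes that fell act at different steps. Dgat1, which makes triglyceride from diglyceride, measured 2350, 2170 and 2110 at 4 h and 1390, 1330 and 1540 at 76 h (log2 change -0.64 ± 0.15, adjusted p = 0.0228). Slc25a1, the mitochondrial citrate carrier, fell from 6480, 5800 and 5670 to 3860, 3310 and 4780 (-0.60, adjusted p = 0.0288), and Acacb, the mitochondrial acetyl-CoA carboxylase, from 1920, 2320 and 1920 to 1560, 1270 and 1390 (-0.55, adjusted p = 0.0173). Srebf1, the transcription factor that drives fatty acid synthesis, fell from 3170, 3460 and 3630 to 2720, 2300 and 2800 (-0.40, adjusted p = 0.0422). The bright enzymes of the pathway did not pass the test: Fasn, Acly, Acaca, Elovl6 and Scd1 had log2 changes of -0.05, -0.05, -0.11, -0.20 and -0.08. Neither did Mlxipl (-0.37, adjusted p = 0.297), Pnpla3 (0.47, adjusted p = 0.394) and Thrsp (-0.02), although another Thrsp probe set gave 0.94. A second Scd1 probe set gave 0.36 and did not pass. Fasn (11500 to 12200), Scd1 (12200 to 14000) and Thrsp (12000 to 12700) lay near the top of the 6 arrays, whose maxima ran from 14306 to 15182. Whether changes are hidden at such high signals was not tested. The count of 4 was 0 without replicate 2 of either time, 1 without replicate 1 or 3 of 4 h or replicate 1 of 76 h, and 4 without replicate 3 of 76 h.

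In fat breakdown and oxidation 1 of 23 genes rose and 3 fell, beside 0.955% and 2.61% of all genes. The list median was -0.0599, which turned to 0.00147 under quantile normalization. Hadha, a subunit of the mitochondrial enzyme that oxidizes long-chain fatty acids, fell from 2650, 2740 and 2430 to 1510, 1420 and 1650 (log2 change -0.77 ± 0.12, adjusted p = 0.00244) and stayed called without any single array. Ppara, the fatty acid sensing receptor that drives oxidation, fell from 149, 158 and 132 to 73.2, 102 and 85.5 (-0.76, adjusted p = 0.0493), and the lipase Pnpla2 (ATGL) from 7400, 6990 and 7090 to 5460, 5000 and 5680 (-0.41, adjusted p = 0.0433). G0s2, which inhibits that lipase, rose from 1740, 1930 and 1550 to 2640, 2800 and 2920 (0.68 ± 0.14, adjusted p = 0.0104). Ppara and Pnpla2 lost the call whichever of the 6 arrays was left out (adjusted p up to 0.214 and 0.18). G0s2 lost it without replicate 3 of 4 h or replicate 2 of 76 h (up to 0.0571).

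Of 17 white adipocyte markers, 3 fell and none rose: the adipocyte regulators Cebpa (5770, 5230 and 5020 against 3750, 3790 and 4450) and Pparg (2740, 2420 and 2780 against 2040, 1870 and 2190) and the droplet protein Plin4 (5730, 5690 and 5210 against 4090, 4690 and 4120). Their log2 changes were -0.42, -0.38 and -0.37, with adjusted p of 0.038, 0.0289 and 0.00585. Adipoq (-0.03) and Lep, leptin (0.00), did not change detectably. Adipoq (11000 to 11900) also lay near the top of the arrays, and whether a change is hidden there was not tested. Of 9 brown adipocyte markers, the fatty acid elongase Elovl3 (131, 117 and 120 against 75.5, 63.6 and 87) and the potassium channel Kcnk3 (399, 295 and 284 against 233, 177 and 222) fell, by 0.71 and 0.62. For both lists, the share called lower over all genes was 2.61%. Ucp1, the defining uncoupling protein, had a log2 change of -1.08 with an SE of 0.58 (adjusted p = 0.298). In pooled tissue, fewer cells of a type and less RNA per cell cannot be told apart. Left out singly, the arrays left 0 to 3 called white adipocyte markers and 0 or 1 brown. Plin4 lost the call only without replicate 1 of 76 h (adjusted p = 0.0519), Pparg without replicate 1 or 3 of 4 h or 1 or 2 of 76 h (up to 0.153), Cebpa and Elovl3 without any but replicate 3 of 76 h (up to 0.17 and 0.148), and Kcnk3 without any one of the 6 (up to 0.226).

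**Figure D4:**
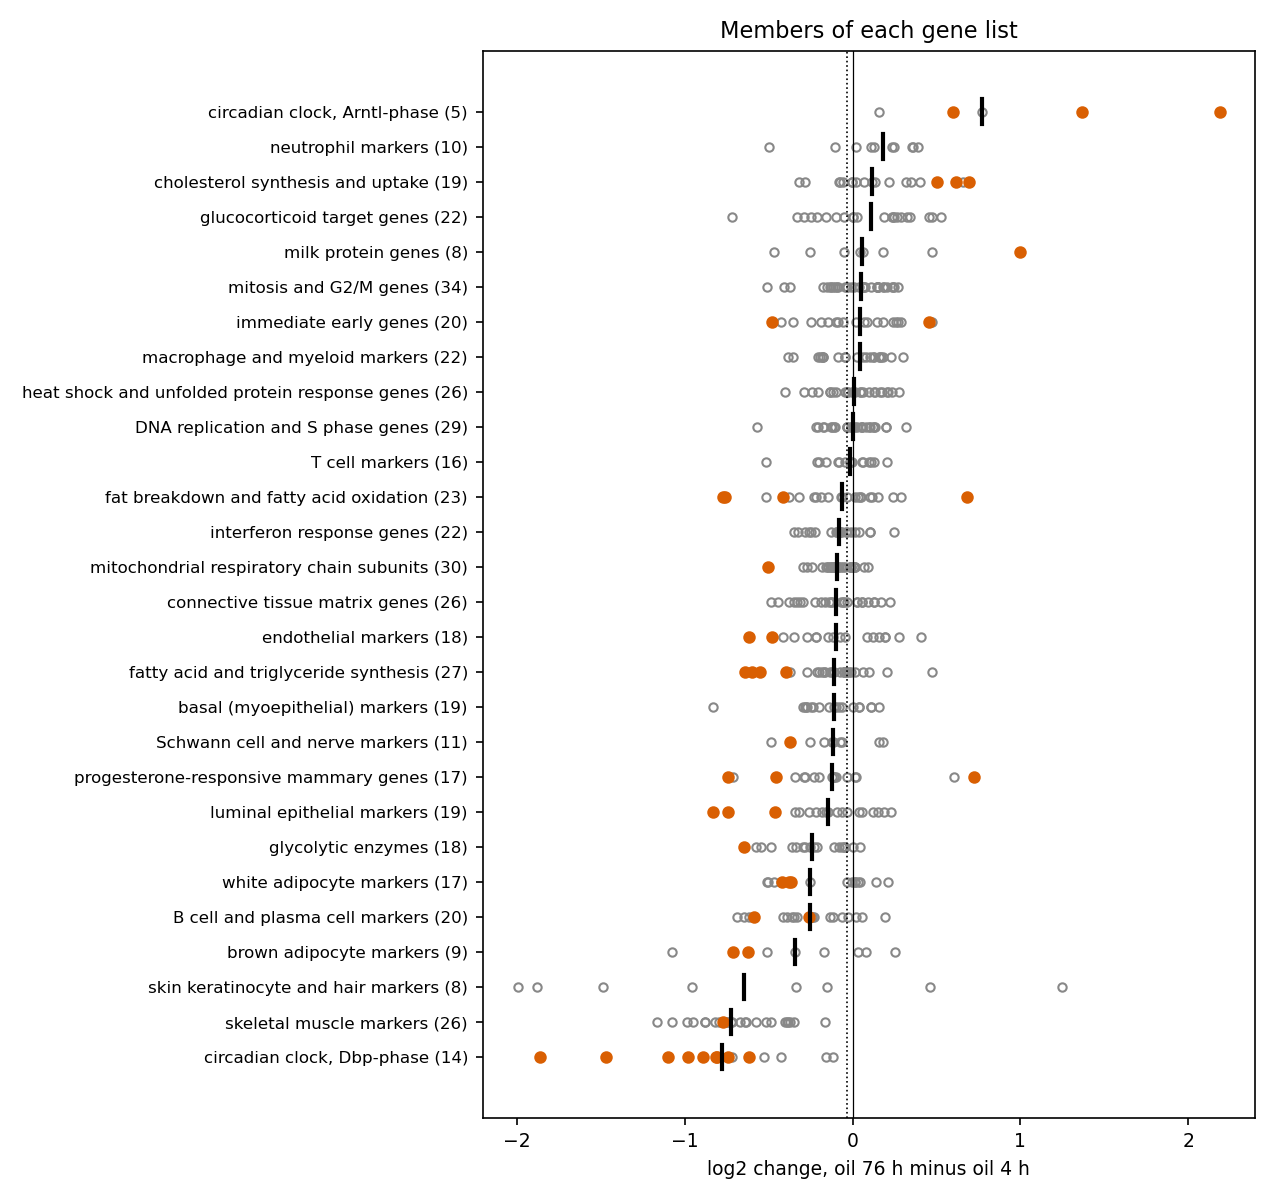
Log2 change from oil 4 h to oil 76 h (x axis) of the tested members of each gene list with 5 or more (number in brackets); filled orange points passed the test, open points did not, the thick bar is the list's median and the dotted line the median of all genes, -0.0352. The 2 clock lists lie at opposite ends.

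Skeletal muscle markers all had negative estimates, but 1 array carried them. The median over 26 genes was -0.723, and it was -0.0749 without replicate 3 of 76 h. Mean log2 deviations from the gene's mean over all arrays were 0.662, 0.526 and 0.328 at 4 h and 0.348, 0.363 and -1.23 at 76 h. Cox6a2, a muscle form of a cytochrome oxidase subunit, was the 1 of 26 that passed (691, 483 and 585 against 331, 376 and 313, log2 change -0.77, adjusted p = 0.0405), and it lost the call without replicate 1 or 3 of 4 h or any one array of 76 h (adjusted p up to 0.177). In glycolysis, Pfkl, the liver form of phosphofructokinase, was the 1 of 18 genes that fell (1720, 1290 and 1420 against 955, 834 and 1030, adjusted p = 0.0368), with a list median of -0.242, and of 30 respiratory chain subunits Uqcrc1 fell (2720, 3100 and 2580 against 1930, 1950 and 2020, adjusted p = 0.0104). Against 2.61% of all genes called lower, a single call in lists of this size is no result about the list. Without the muscle-poor replicate 3 of 76 h, the glycolysis median was -0.136 (-0.242 with it) and the respiratory chain median -0.0795 (-0.0915 with it), and Pfkl and Uqcrc1 stayed called. Pfkl and Uqcrc1 lost the call without replicates 1 or 3 and 2 of 4 h, respectively, and without replicate 1 or 2 of 76 h (adjusted p up to 0.171 and 0.0633).

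Of 19 luminal epithelial markers 3 fell and none rose, beside 2.61% of all genes called lower and 0.955% higher. Cldn3, a claudin of tight junctions, measured 408, 395 and 367 at 4 h and 226, 202 and 231 at 76 h (log2 change -0.83 ± 0.18, adjusted p = 0.0173). Pgr, the progesterone receptor, measured 490, 493 and 411 against 321, 235 and 282 (-0.74 ± 0.21, adjusted p = 0.049). Esr1, the estrogen receptor, measured 1490, 1420 and 1300 against 1140, 944 and 972 (-0.46 ± 0.12, adjusted p = 0.0405), while its second probe set gave 0.11. The list median was -0.146, and 1 gene stayed called under quantile normalization or centring. Pgr and Esr1 lost the call whichever of the 6 arrays was left out (adjusted p up to 0.202 and 0.171), and Cldn3 without replicate 1 of 4 h or replicate 1 or 2 of 76 h (up to 0.0928). None of 19 basal markers was called with limma, and 2 were lower at an unadjusted p under 0.05, beside 1706 of all 12352 genes.

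Of 17 genes known to answer progesterone, 3 changed in the oil mice, beside 3.57% of all genes. Fst (follistatin, which binds activins) rose from 373, 328 and 308 to 610, 510 and 546 (log2 change 0.73, adjusted p = 0.0271), and Pgr and Ccnd1 fell. Ccnd1, cyclin D1, measured 864, 715 and 925 at 4 h and 634, 615 and 569 at 76 h (-0.46, adjusted p = 0.0294). The paracrine signal Wnt4 differed by -0.23 (adjusted p = 0.596), and the second probe set of Fst gave -0.09. Among 8 milk protein genes Lalba was called, while Csn2, beta-casein, measured 7.34, 5.7 and 12.5 at 4 h and 3.38, 6.76 and 3.38 at 76 h. Those values lie near the floor, and yet the oil arrays of 28 h read 1190, 575 and 212 for Csn2. The proliferation marker Mki67 measured 326, 348 and 490 against 342, 412 and 360 (-0.04, adjusted p = 0.931). None of 34 mitosis genes and 29 replication genes was called with limma, with 1 lower gene in each at an unadjusted p under 0.05, beside 1706 of all 12352 genes. Fst lost the call whichever of the 6 arrays was left out (adjusted p up to 0.128), Ccnd1 without any but replicate 2 of 4 h (up to 0.126) and Lalba without any but replicate 1 of 4 h (up to 0.154).

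Immune, vessel and nerve markers gave few calls, all of them lower, beside 2.61% of all genes called lower. Of 20 B cell and plasma cell markers, the IgE receptor Fcer2a (1150, 1170 and 1110 against 767, 774 and 743) and Xbp1, a secretory cell factor that other cells express too (4180, 4360 and 4500 against 3640, 3540 and 3710), fell by 0.59 and 0.26 (adjusted p = 0.0264 and 0.0194), with a list median of -0.252. Of 18 endothelial markers, the TGF-beta co-receptor Eng (896, 901 and 814 against 545, 523 and 641) and the transcription factor Sox18 (1020, 955 and 982 against 778, 630 and 725) fell, by 0.62 and 0.48, and a second Eng probe set gave 0.07. Of 11 Schwann cell and nerve markers, the myelin enzyme Cnp fell by 0.37 (adjusted p = 0.0462). No gene was called with limma among 22 macrophage (4 lower at an unadjusted p under 0.05), 16 T cell (1 lower), 10 neutrophil (none), 26 connective tissue matrix (8 lower), 8 skin (1 higher) and 3 red blood cell markers (1 higher, 1 lower). At the same unadjusted threshold, 818 of all 12352 genes were higher and 1706 lower. The summed neutrophil signal ran from 4343 to 9627 at 4 h and from 4968 to 13150 at 76 h, so that the arrays of 1 time differed more than the times. Fcer2a, Eng, Sox18 and Cnp lost the call whichever of the 6 arrays was left out (adjusted p up to 0.0988, 0.176, 0.202 and 0.182), and Xbp1 without replicate 2 or 3 of 4 h or 1 or 2 of 76 h (up to 0.102).

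Stress-response genes gave few calls. Of all 12352 genes, 0.955% were called higher and 2.61% lower. At limma's unadjusted p under 0.05, 818 of all genes were higher and 1706 lower. Of 22 glucocorticoid target genes none was called with limma, with 5 higher and 2 lower at an unadjusted p under 0.05 and a median of 0.107. Fkbp5 and Tsc22d3 (GILZ), which glucocorticoids induce in most tissues, had log2 changes of -0.25 and 0.19 (adjusted p = 0.609 and 0.543). Of 20 immediate early genes, Fosl2 rose (365, 330 and 410 against 539, 493 and 479, 0.46, adjusted p = 0.0473) and Ier2 fell (633, 664 and 682 against 474, 422 and 527, -0.48, adjusted p = 0.0325). None of 26 heat shock and unfolded protein genes (3 higher and 1 lower at an unadjusted p under 0.05) or 22 interferon response genes (2 lower) was called with limma. Fosl2 lost the call whichever of the 6 arrays was left out (adjusted p up to 0.195) and Ier2 without any but replicate 3 of 76 h (up to 0.168).

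The same interval in the progesterone mice, on 6 arrays that the oil comparison does not use, gave 3070 called genes (24.9%), 1748 higher (14.2%) and 1322 lower (10.7%). Of the 441 genes called in oil, 190 were called in the same direction with progesterone, 43.1% of the oil calls and 6.19% of the progesterone calls, and 15 in the opposite one. The sign agreed in 355 of the 441 (80.5%), a share that was not computed for all genes. In the test of the difference between both changes, 993 of all genes were called (8.04%; 6.02% higher and 2.02% lower), and 80 of the 441 (18.1%). The difference contains the oil change by which the 441 were selected, so that the last share is raised by that selection. Ssh1 fell by 0.94 on the log2 scale in oil and by 1.01 with progesterone, Nr1d1 by 1.47 and 1.54, and Hadha by 0.77 and 0.54, each called in both.

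The clock change was smaller with progesterone for several genes. The Arntl-phase median was 0.244 and the Dbp-phase median -0.188 with the hormone. Arntl measured 163, 107 and 106 on the progesterone arrays of 4 h and 159, 139 and 141 on those of 76 h, a log2 change of 0.25 against 1.37 in oil (difference -1.12 ± 0.30, adjusted p = 0.0195). Dbp measured 1030, 1550 and 1320 and then 762, 827 and 732, so that the hormone arrays of 4 h already lay below all 3 oil arrays of 4 h. Its difference of 1.13 ± 0.38 did not pass (adjusted p = 0.0665). Differences were called for Clock (-0.74, adjusted p = 0.00338), Tef (0.75, adjusted p = 0.0149), Hlf (1.07, adjusted p = 0.021), Ciart (0.99, adjusted p = 0.0349) and Wee1 (1.61, adjusted p = 0.000272), and not for Npas2 (-1.34, adjusted p = 0.192) or Per3 (0.51, adjusted p = 0.154).

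Some genes moved in opposite directions without and with the hormone, each change called. Pgr fell by 0.74 in oil and rose by 1.72 with progesterone, from 87.8, 99.9 and 69 at 4 h to 312, 255 and 269 at 76 h (difference 2.46 ± 0.29, adjusted p = 1.06e-05). The 76 h levels with hormone overlapped those in oil, and the 4 h levels lay far below. Cited4, Ccnd1 and Wee1 likewise fell in oil and rose with progesterone, by 1.05, 1.10 and 0.87. Fgg and Lalba rose in oil and fell by 1.75 and 1.62 with progesterone. Fgg measured 307, 516 and 273 at 4 h of hormone and 136, 109 and 76.8 at 76 h. Hmgcs1 and G0s2 were called higher in oil only, with differences of -0.79 (adjusted p = 0.00957) and -1.03 (adjusted p = 0.0017).

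**Figure D5:**
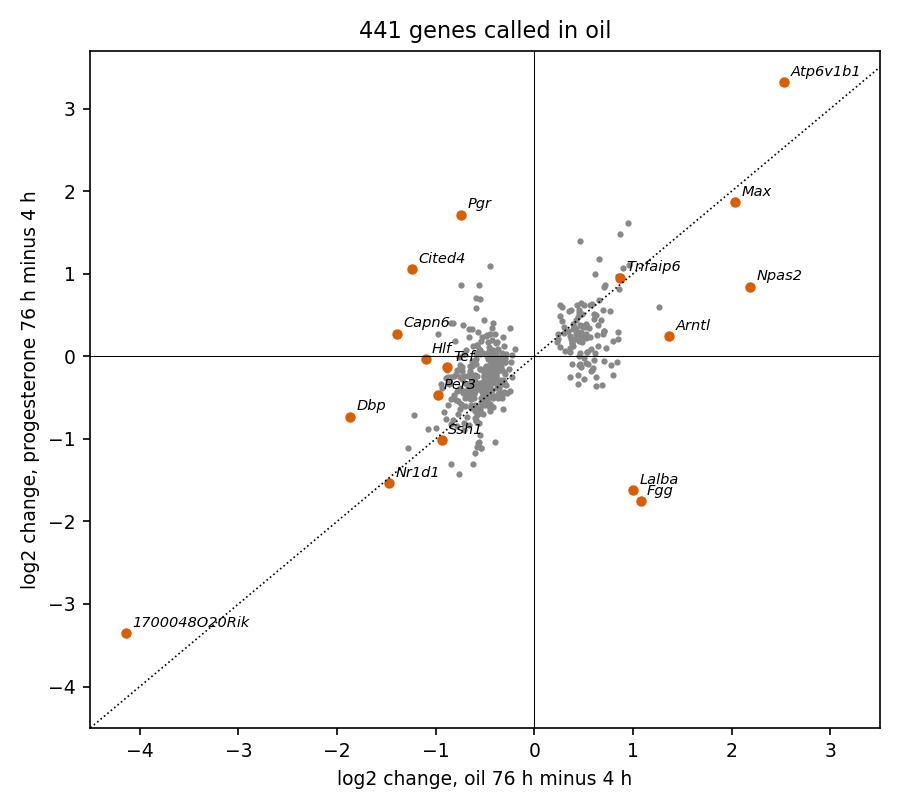
Log2 change from 4 h to 76 h in oil (x axis) and with progesterone (y axis) for the 441 genes called in oil, 1 point a gene, with named genes in orange and equal change as the dotted line. The sign agrees in 355 genes, and Pgr, Cited4, Lalba and Fgg lie in the quadrants of opposite sign.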

How the data were processed

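Per the labels' protocols, mammary gland total RNA was isolated with Trizol and labelled with biotin in 1 cycle for Affymetrix Mouse Genome 430 2.0 arrays. As deposited, the table holds linear intensity values for 45101 probe sets on 24 arrays, as their range shows. How the authors summarized and scaled them is not given in the sources used here. Replicates are pools of 5 mice that the labels call biological, and 3 arrays per group limit the precision.

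A floor at the table's 10th percentile (7.38) preceded log2. Gene names came from the platform annotation of 2016, where 34945 probe sets have 1 symbol, 932 several and 9160 none, and 64 control probe sets stayed out. A probe set had to exceed its array's median on at least 3 of 24 arrays, and the brightest probe set on average stood for its gene, giving 12352 genes. All 24 arrays were fitted with a mean for each of 8 groups with limma 3.58.1 in R 4.3.3 (intensity trend, 16 residual degrees of freedom), Benjamini-Hochberg adjusted over all genes and called at an adjusted p under 0.05. Here errors of log2 changes are SE from the model, and those of control ratios SD over arrays. Tests are two-sided. The script was tested on simulated data.

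The 29 gene lists, the comparisons and the naming rule were chosen with earlier results of these data known, and lists are described by counts and medians, with no test. The rule names the 15 largest changes in each direction among called genes with no overlap between the times (clone names left out), up to 4 called members a list, the 10 smallest p of the difference between progesterone and oil, and a fixed set of clock, lipid and hormone genes. Genes named outside it (Ucp1 and 1700048O20Rik) were chosen after their values were seen. Promoters are RefSeq's on GRCm38.p6, matched by symbol for 9952 of the 12352 genes (80.6%). Alternatives covered the filter, the scaling, the floor, the log scale, probe sets, the variance model, array weights, thresholds, the arrays in the fit, a replicate block and leaving out each array.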

Additional observations from a re-analysis of the deposited data

Results flagged for a closer look

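For 31 of the 101 named genes the change from 4 h to 76 h differed between the progesterone and the oil mice. This was limma's test of the difference itself (adjusted p under 0.05 over all genes), which called 993 of all 12352 genes (8.04%). Of the 31, 10 were named for having the smallest p of this same difference. Their passing is therefore no separate result, and the naming rule raises the share among named genes. Values below are that difference on the log2 scale, progesterone minus oil, so that a positive value means a larger rise or a smaller fall with the hormone.

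Among genes that changed in oil, the difference was positive for the fallen genes Pgr (2.46), Cited4 (2.29), Wee1 (1.61), Ccnd1 (1.55), Kctd14 (1.25), Cldn3 (1.23), Hlf (1.07), Ciart (0.992), Tef (0.755) and Ier2 (0.736). It was negative for the risen genes Fgg (-2.83), Lalba (-2.62), Arntl (-1.12), G0s2 (-1.03), Hmgcs1 (-0.786) and Clock (-0.741). The difference contains the oil change itself, so that grouping genes by that change favors these opposite signs. The change with the hormone was called in the opposite direction for Pgr, Cited4, Wee1, Ccnd1, Fgg and Lalba.

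The other 15 had no called change in oil, and their difference came with a called change under progesterone. The difference was 3.95 for Gm266, 3.59 for Rspo1 (R-spondin 1, a Wnt enhancer), 2.71 for Col7a1, 2.61 for Emid1, 2.29 for Id4, 1.99 for Irx3, 1.93 for Col16a1, 1.91 for Sdc1, 1.61 for Nxn, 1.4 for Mki67 and 1.22 for Wnt4. It was -4.28 for Aldh3a1, which measured 580, 418 and 374 on the progesterone arrays of 4 h and 14.2 to 41.1 on all 12 oil arrays. The fatty acid synthesis enzymes Elovl6 (-0.981), Acly (-0.706) and Acaca (-0.496) fell with the hormone and were near level in oil. Groups of 3 arrays are too small for the test of single outlying arrays, so that none was run.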

How the results depend on the processing

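The 3 counts of called genes (441 in oil, 3070 with progesterone, 993 for the difference) moved by over 1.5 times under these alternatives. In oil the count was 285 with arrays centred on their medians, 707 with each probe set alone, 2322 with array weights, 67 at an adjusted p under 0.01, 162 at 1.5-fold or more and 1326 on the 6 arrays alone. With progesterone it was 5465, 7013, 1749 and 1264 for probe sets, weights, 0.01 and 1.5-fold. For the difference it was 3703, 423 and 1613 for weights, 0.01 and the 12 arrays alone. The causes were not tested. Left out singly, arrays gave 45 to 280 genes in oil, 1964 to 2915 with progesterone (lowest without progesterone 76 h replicate 1) and 595 to 1217 for the difference (595, 629 and 650 without progesterone 76 h replicate 1, progesterone 4 h replicate 1 or oil 76 h replicate 1). Quantile normalization split the counts into 200 higher and 227 lower in oil, 1530 and 1854 with progesterone (1748 and 1322 as deposited) and 605 and 528 for the difference (743 and 250).

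Oil arrays of 4 h and 76 h that share a replicate number deviated together with correlations of 0.15, 0.13 and 0.097. Each 4 h array correlated best with its own number at 76 h, which is a hint from the data and not from the design. The progesterone arrays of 4 h and 76 h did not show it, with correlations of -0.12, 0.018 and -0.065. The replicate block gave 345, 2956 and 928 genes, and 12 of the 68 called genes named here were not called under it.

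No named gene called in oil changed sign under any alternative run. In the fits without 1 array, a gene with no overlap between the times could not do so. Genes near 0 did: under quantile normalization Mki67 (0.000695), Irx3 (0.0502) and Lep (0.0581), with the mean of probe sets Scd1 (0.14), Thrsp (0.32, adjusted p = 0.035) and Sdc1 (-0.0292), and with array weights Irx3 (0.00825) and Lep (0.0184). Left out singly, arrays gave -0.0592 to 0.0183 for Irx3, -0.0684 to 0.0896 for Lep, -0.381 to 0.0751 for Aldh3a1, -0.157 to 0.136 for Mki67, -0.443 to 0.0278 for Wnt4, -0.0421 to 0.00161 for Thrsp and -0.0459 to 0.37 for Tsc22d3. The Gapdh ratio ran from -0.0815 to 0.0211, the last without 4 h replicate 1, and the actin ratio from -0.104 to -0.0712. Signals below an array's median are near background and give imprecise changes.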
